A study of Homo sapiens with 24 samples.

Results

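The natriuretic peptide system was examined in SW872 cells through 8 genes. They are the 3 peptide genes NPPA, NPPB and NPPC, the 3 receptor genes NPR1, NPR2 and NPR3, and CORIN and FURIN, which encode proteases that cut the peptide precursors. They were looked up by Ensembl identifier among the 60279 genes counted, and 6 of the 8 had the mean of at least 5 counts over all libraries needed to be tested, as did 19997 genes in all. NPPA (mean 3.54 counts) and NPPC (mean 0.208 counts) fell below that limit and are given by their counts. The set was chosen by NPPB, whose measured counts in the TAZ4SA, YAP5SA, EV and YAP-TFE3 libraries brought the family to attention, so every NPPB value set against those groups is a description with no test. The other 7 genes were added because they belong to the same system.

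SW872 is an established human liposarcoma cell line. Pools of cells stably carried a retroviral vector, and poly(A) RNA from 3 libraries was counted in each of 8 groups. The EV group held the empty vector, TAZ4SA and YAP5SA held forms of the Hippo pathway coactivators TAZ and YAP with serines changed to alanine, and TAZ-CAMTA1 and YAP-TFE3 held the fusion proteins found in epithelioid hemangioendothelioma. The TFE3 group held the full-length transcription factor. These 6 groups were collected 48 h after confluence. The CAMTA1 group, with the full-length transcription factor, and a further empty vector group, EVsub, were collected while sub-confluent. The construct came from a viral vector and not from the native promoter, and no group was a selected clone. Per the study's methods, each library of a group came from its own transduction and stable selection, so p-values measure the spread between such pools of 1 cell line. In bulk RNA, fewer cells making a transcript and less of that transcript per cell cannot be told apart.

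Library totals ran from 19700277 to 35287476 counts. CAMTA1, TFE3 and YAP1 transcripts were higher than in the matched empty vector where the labels name them. WWTR1, which encodes TAZ, did not follow its label. It stood at 204 CPM (counts relative to the scaled library size, from edgeR) in EV and at 134 CPM in the libraries so labelled, a log2 fold change of -0.60 (edgeR adjusted p = 9.77e-07), so these are called the libraries labelled TAZ4SA throughout. In TAZ-CAMTA1, which holds part of TAZ, it stood at 181 CPM (log2 fold change -0.17, edgeR adjusted p = 0.236). Lower WWTR1 than in EV was not limited to the TAZ4SA label. YAP5SA had 68.7 CPM (log2 fold change -1.57, edgeR adjusted p = 1.7e-13). YAP-TFE3 had 126 CPM (log2 fold change -0.70, edgeR adjusted p = 9.98e-08), while TFE3 had 193 CPM. WWTR1 was higher under the TAZ4SA label than in YAP5SA by 0.97 in log2 (edgeR adjusted p = 2.08e-08). The paper reports a western blot of Flag-tagged TAZ4SA protein from SW872 cells. Of 8 adipocyte markers 4 were tested, and the list was mixed. ADIPOQ was at 0 counts in all 24 libraries, LEP had at most 2 counts in any library, and FABP4 held 17 to 23 counts in YAP-TFE3 and at most 1 elsewhere. LPL, lipoprotein lipase, lay between 38.5 and 257 CPM as a group mean, and PPARG, the regulator of fat cell formation, between 28.9 and 87.2 CPM. Of 6 mesenchymal markers, VIM lay between 472 and 1090 CPM as a group mean, but this list was mixed too. Against EV, 1 was higher and 3 lower under the TAZ4SA label, where 49.2% of all tested genes passed. In YAP5SA 1 was higher and 1 lower, where 44.3% passed. FN1 stood at 4150 CPM in EV, 1180 under the TAZ4SA label and 1640 in YAP5SA, while COL1A1 stood at 19.2, 15.1 and 61.7 CPM.

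Natriuretic peptides are hormones best known from the heart, where NPPA encodes atrial and NPPB encodes B-type natriuretic peptide. They are made as precursors, cut by corin or furin, and released to lower blood volume and blood pressure. NPR1 and NPR2 are receptors with a guanylyl cyclase domain that makes cyclic GMP (cGMP). NPR1 answers mainly to the NPPA and NPPB products and NPR2 to C-type peptide, the NPPC product, while NPR3 has no cyclase domain and removes the peptides from the circulation. In fat, the system is known for driving the release of fatty acids.

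All 8 genes were placed on GRCh38 with GENCODE release 44. NPPA (ENSG00000175206, chr1:11845709-11848345, minus strand) and NPPB (ENSG00000120937, chr1:11857464-11858945, minus strand) are neighbours. NPPC (ENSG00000163273) is at chr2:231921809-231926396 on the minus strand. NPR1 (ENSG00000169418) is at chr1:153678688-153693992, NPR2 (ENSG00000159899) at chr9:35791003-35809732 and NPR3 (ENSG00000113389) at chr5:32689070-32791724, all on the plus strand. CORIN (ENSG00000145244) is at chr4:47593999-47838106 on the minus strand and FURIN (ENSG00000140564) at chr15:90868588-90883564 on the plus strand. NPPA shares 286 exon bases with CLCN6 and NPR2 shares 329 exon bases with SPAG8, each on the opposite strand. The library kit kept strand, but the sources used here do not say whether counting used it, so the counts of NPPA and NPR2 are uncertain to that extent. NPPB, NPPC, NPR3 and FURIN overlap no annotated gene.

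The table of RefSeq promoters (GRCh38.p14) held 7 of the 8 genes, with 11 start sites in all. NPPB is the member without an entry. The 250 bases before each start were searched on both strands for the M-CAT core GGAATG, which TEAD factors bind, the AP-1 site TGANTCA, the GATA sites AGATAA and TGATAA, and the E-box CACGTG read by the MiT/TFE family. No pair of these motifs overlapped in a member. Only 2 of the 11 start sites held a match, with 4 matches in all. NPR3 is shown because it is the member whose level differed most between groups outside NPPB. Its second start site had 1 M-CAT core, on the minus strand, at -190 to -185 bases from the start, and 11.9% of the 35116 promoters of the table held that core. The 30 bases around it (chr5:32710447-32710476, plus strand) follow with the core in capitals, read here on the plus strand. Its first start site held none of the 5 motifs, and its 250 bases (chr5:32690622-32690871, plus strand) are printed whole for comparison.
NPR3 start 2: cagaagttgaacCATTCCctcgcctttggg
NPR3 start 1: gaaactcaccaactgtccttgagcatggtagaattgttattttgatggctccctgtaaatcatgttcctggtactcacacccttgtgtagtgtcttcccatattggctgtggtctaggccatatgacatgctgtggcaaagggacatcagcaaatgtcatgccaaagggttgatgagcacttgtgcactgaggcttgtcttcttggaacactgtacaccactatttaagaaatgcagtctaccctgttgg

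The NPPA start held 1 AP-1 site, at -240 to -234 bases from it, and 2 copies of the GATA site TGATAA. These were present in 6.57% and 6.66% of the promoters of the table. The 30 bases around each GATA site are shown because NPPA, unlike its neighbour, stayed near the count floor in every group. They lie at chr1:11847908-11847937 and chr1:11847861-11847890 and are printed along the minus strand, on which NPPA is read, with the site or its reverse complement in capitals. A match is a match of letters and not evidence of binding.
NPPA GATA site from base -142: agccctgcgggaTGATAActttaaaagggc
NPPA GATA site from base -95: cacttggcagctTTATCActgcaagtgaca

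Among the peptide genes, NPPB was abundant in YAP5SA and in the libraries labelled TAZ4SA, and scarce elsewhere. The libraries labelled TAZ4SA held 4331, 4550 and 3899 NPPB counts, or 174, 195 and 150 CPM. The YAP5SA libraries held 7338, 8268 and 4301 counts, or 346, 393 and 173 CPM. The EV libraries held 4, 4 and 0 counts. No library of either group came near an EV library, and the lowest of the 6 held 3899 counts.

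The fusion proteins went with far lower NPPB than the forms with serines changed to alanine. TAZ-CAMTA1 libraries held 11, 13 and 15 counts, and YAP-TFE3 libraries held 1, 1 and 0. The TFE3 libraries held 1, 3 and 2 counts, so both groups with TFE3 sequence lay at or below 3 counts in each library. Both overlapped EV in CPM, whereas TAZ-CAMTA1 lay above every EV library. At these depths 3 counts correspond to 0.0928 CPM in YAP-TFE3 and 0.0918 CPM in TFE3, and a level below that was not measurable. In the sub-confluent cells, EVsub libraries held 13, 9 and 37 counts and CAMTA1 libraries held 106, 83 and 29. The third CAMTA1 library lay below the third EVsub library in counts but above it in CPM, at 1.42 against 1.05.

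**Figure D1:**
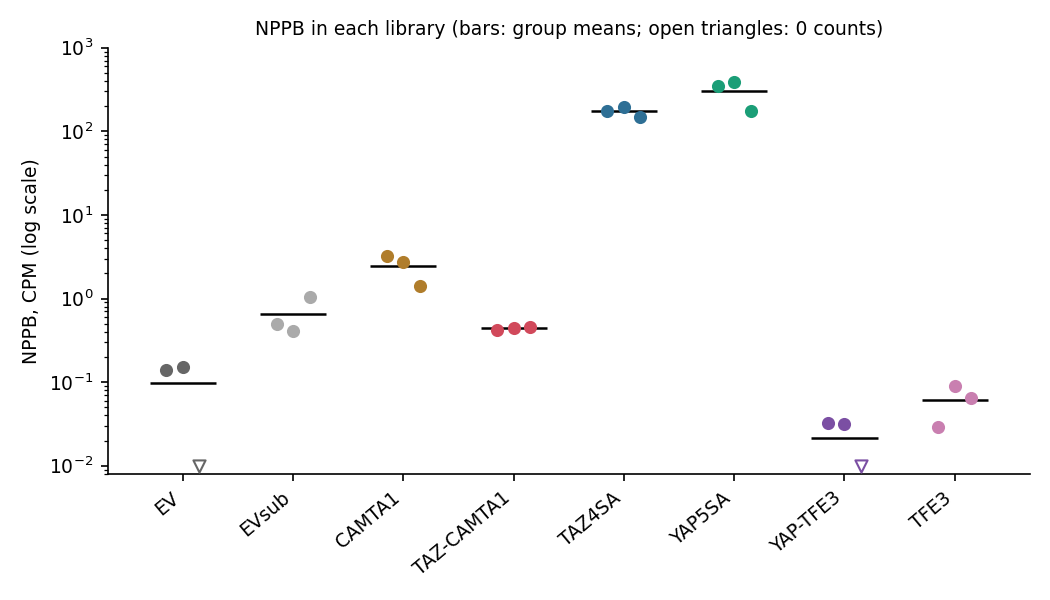
NPPB in CPM on a log axis, 1 point per library and a bar at the mean of each group of 3; open triangles at the lower edge are libraries with 0 counts. YAP5SA and the libraries labelled TAZ4SA lie between 150 and 393 CPM, and every other library lies at 3.19 CPM or below.

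By group mean ± SD (n = 3), NPPB ran from 304 ± 116 CPM in YAP5SA and 173 ± 22.5 CPM in the libraries labelled TAZ4SA through 2.45 ± 0.918 in CAMTA1, 0.650 ± 0.349 in EVsub and 0.441 ± 0.0225 in TAZ-CAMTA1. EV stood at 0.0968 ± 0.0841 CPM, TFE3 at 0.0615 ± 0.0307 and YAP-TFE3 at 0.0213 ± 0.0184. Each of these means lay below the floor of 3 counts per library, which is 0.121 CPM in EV. Neighbours in this order overlapped between YAP5SA and the libraries labelled TAZ4SA, between EVsub and TAZ-CAMTA1, and among EV, TFE3 and YAP-TFE3. The gap below the libraries labelled TAZ4SA, the gap below CAMTA1 and the gap below TAZ-CAMTA1 held no overlap of libraries.

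Ratios of depth-scaled counts describe the same spread, with 95% intervals that cover counting error only. The libraries labelled TAZ4SA held 1640 times the NPPB of EV (830 to 3790), and YAP5SA held 2810 times (1430 to 6520). The libraries labelled TAZ4SA held 390 times the NPPB of TAZ-CAMTA1 (285 to 548). YAP5SA held 14400 times that of YAP-TFE3 (3990 to 119000), a ratio that rests on 2 counts in YAP-TFE3. TAZ-CAMTA1 held 4.20 times that of EV (1.93 to 10.4) and 21.5 times that of YAP-TFE3 (5.57 to 184). These ratios are wide where EV or YAP-TFE3 enters, because those groups held 8 and 2 NPPB counts in all.

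NPPB differed with confluence in the empty vector too. EVsub held 6.69 times the NPPB of EV (3.18 to 16.2). Its lowest library, at 0.405 CPM, stood above the highest EV library, at 0.152 CPM.

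CAMTA1 and EVsub are not among the groups through which NPPB was noticed, and there the gene was tested. NPPB was higher in CAMTA1 by 1.86 ± 0.39 on the log2 scale (SE; edgeR adjusted p = 0.00981), where 1.83% of all tested genes passed. The spread in that fit was estimated over all 24 libraries, and with these 2 groups alone the log2 value was 1.87 (edgeR adjusted p = 0.0136). All 3 CAMTA1 libraries lay above all 3 EVsub libraries in CPM. The call did not hold without CAMTA1 replicate 1, EVsub replicate 1 or EVsub replicate 2, at log2 values of 1.63 to 1.69 and edgeR adjusted p of 0.0629 to 0.0953. None of the other 5 tested members passed here in edgeR or DESeq2, and none had an unadjusted p under 0.05 in edgeR.

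NPPA, the neighbour of NPPB, stayed within 0 to 9 counts in each of the 24 libraries. EV held 5, 1 and 3 counts, the libraries labelled TAZ4SA 4, 3 and 2, and YAP5SA 0, 1 and 0. Those 3 YAP5SA libraries were the lowest of the series as a group, with 1 count in all against 9 in EV. The ratio of YAP5SA to EV was 0.126 with a counting interval of 0.00287 to 0.907. When the limit was lowered to a mean of 1 count NPPA entered the fit, and YAP5SA against EV missed the threshold (edgeR adjusted p = 0.0775). YAP-TFE3, at 6, 5 and 2 counts, was then past it against YAP5SA (ratio 8.97, counting interval 1.35 to 381, edgeR adjusted p = 0.0382), a difference that rests on 1 count in YAP5SA. CLCN6, which shares exon bases with NPPA, was not lower in YAP5SA than in EV. The libraries labelled TAZ4SA gave a ratio to EV of 1.02 (0.360 to 2.91). CAMTA1 held 3, 9 and 3 counts, the highest group mean, and overlapped EVsub at 2, 4 and 7.

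NPPC was close to absent from the counts. Its highest value was 2 counts, in 1 YAP5SA library, and EV, CAMTA1 and TAZ-CAMTA1 each had 1 library with 1 count. The 12 libraries of EVsub, TFE3, YAP-TFE3 and the TAZ4SA label held 0, which allows up to 3 counts per library, or 0.0918 to 0.122 CPM as a group mean. No fold is given for NPPC because every group lay within 3 counts per library.

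Per kilobase of exon, NPPB made up nearly all peptide transcript wherever it was abundant. NPPA was 0.0441% of the 3 peptide genes' CPM per kilobase under the TAZ4SA label and 0.00255% in YAP5SA. In EV, by contrast, NPPA was 44 ± 30.3% and NPPB 47.4 ± 43.8% (SD, n = 3), shares that rest on 9 and 8 counts.

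Values for 3 protein-coding genes around the peptide locus, CLCN6, KIAA2013 and PLOD1, are set beside those of NPPB. KIAA2013, which lies 60646 bases from NPPB at higher coordinates, was higher than in EV by 0.42 under the TAZ4SA label and by 0.37 in YAP5SA on the log2 scale (edgeR adjusted p = 0.000854 and 0.00284). CLCN6, 9385 bases away at lower coordinates, differed from EV by 0.09 and 0.33 in log2 (edgeR adjusted p = 0.368 and 0.00167). PLOD1, at higher coordinates, differed from EV by -0.15 in the libraries labelled TAZ4SA and by -0.17 in YAP5SA (edgeR adjusted p = 0.339 and 0.287). Across the 11 comparisons no log2 value of these 3 genes exceeded 0.42 in size.

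**Figure D2:**
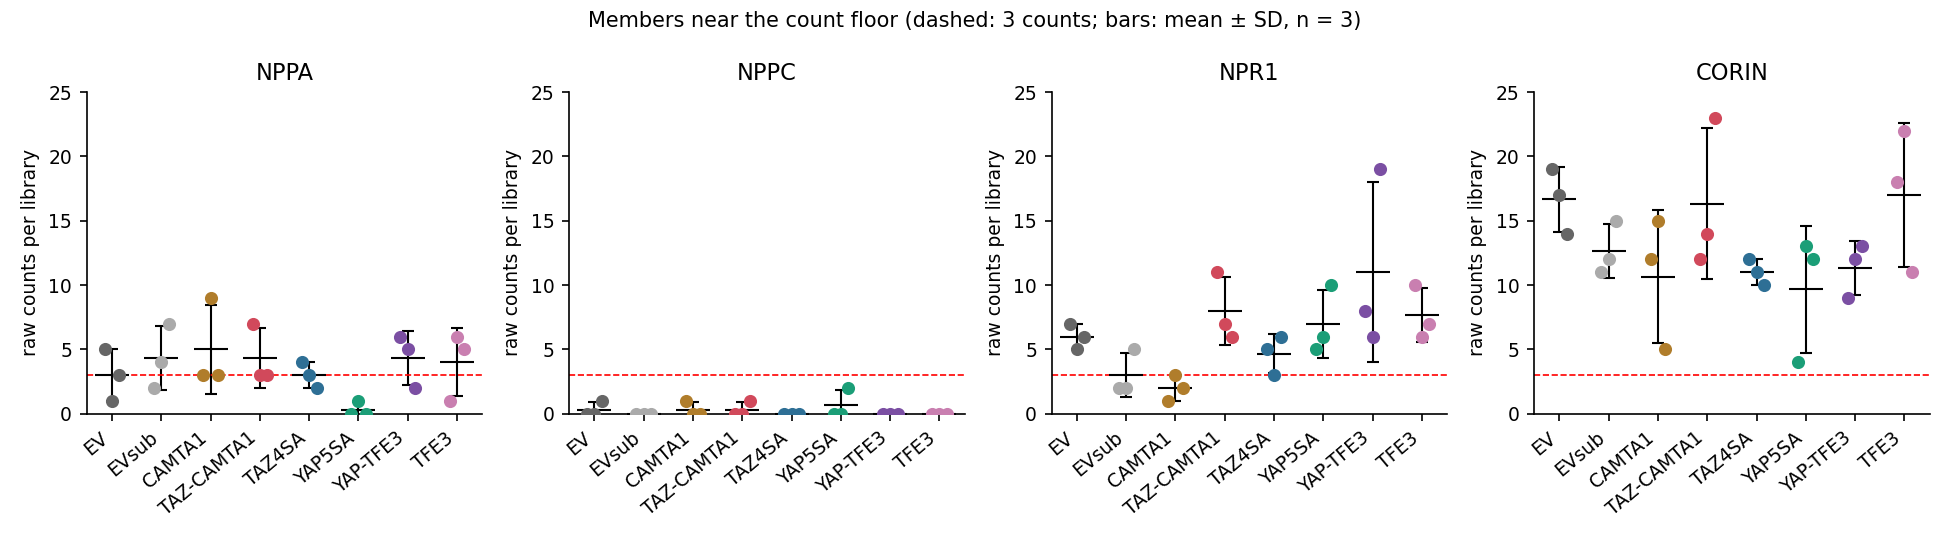
Raw counts of NPPA, NPPC, NPR1 and CORIN, 1 point per library, with mean ± SD (n = 3) and a dashed line at the floor of 3 counts. NPPC lies at 0 to 2 counts throughout, NPPA lies at 0 to 1 in YAP5SA, and CORIN is above the line in all 24 libraries, from 4 to 23 counts.

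Of the receptors, NPR2 was the main transcript and NPR3 the one that varied. Per kilobase of exon, NPR2 made up between 85.9% (YAP5SA) and 97.4% (libraries labelled TAZ4SA) of the receptor CPM as a group mean. NPR3 made up 13.4 ± 1.54% in YAP5SA, 3.93 ± 1.82% in EV and 2.17 ± 0.574% in the libraries labelled TAZ4SA (SD, n = 3). NPR1, the receptor for the NPPB product, stayed below 1% of the receptor level in every group, from 0.226% in CAMTA1 to 0.729% in YAP5SA.

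NPR3 moved in opposite directions in the groups with high NPPB. The YAP5SA libraries held 12.6, 10.2 and 11.6 CPM (267, 215 and 288 counts), and the libraries labelled TAZ4SA held 1.41, 2.40 and 1.85 CPM (35, 56 and 48 counts). EV lay between them at 4.80, 3.62 and 2.08 CPM (139, 95 and 43 counts). All YAP5SA libraries lay above all EV libraries, while 1 library labelled TAZ4SA lay above the lowest EV library.

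In the fit of all genes, NPR3 was higher in YAP5SA than in EV by 1.69 ± 0.25 on the log2 scale (SE; edgeR adjusted p = 5.72e-06). It was lower in the libraries labelled TAZ4SA than in EV (log2 fold change -0.92 ± 0.28, edgeR adjusted p = 0.00962). Without EV replicate 1 or TAZ4SA replicate 1 that second call was lost, at log2 values of -0.75 to -0.62 and edgeR adjusted p of 0.0595 to 0.107. Set directly against each other, the libraries labelled TAZ4SA and YAP5SA differed in NPR3 by -2.61 ± 0.27 (edgeR adjusted p = 4.85e-07), a 6.09-fold lower level under the TAZ4SA label. In that comparison 7.17% of all tested genes passed, and of the 1434 that did, 33 had a larger change than NPR3.

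NPR3 was higher with both fusion proteins than in EV. TAZ-CAMTA1 libraries held 7.61, 9.24 and 6.61 CPM and YAP-TFE3 libraries 7.67, 7.47 and 5.84 CPM, all above the highest EV library. The log2 fold change from EV was 1.13 ± 0.25 in TAZ-CAMTA1 (edgeR adjusted p = 0.00614) and 0.97 ± 0.25 in YAP-TFE3 (edgeR adjusted p = 0.00225). For TAZ-CAMTA1 this was the only member that passed among the 5 tested without NPPB, in a comparison where 4.98% of all tested genes passed. The fusions differed from each other in NPR3 by 0.16 on the log2 scale, with a 95% interval of -0.32 to 0.64 (edgeR adjusted p = 0.607).

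Set against its unfused parent, each fusion had a different NPR3 change. TAZ-CAMTA1 stood above the libraries labelled TAZ4SA by 2.05 ± 0.27 (edgeR adjusted p = 8.6e-07), while YAP-TFE3 stood below YAP5SA (log2 fold change -0.71 ± 0.23, edgeR adjusted p = 0.0121). In neither comparison did the libraries overlap. The difference between the pairs was itself past the threshold for NPR3 and NPR2, 2 of the 5 members tested without NPPB, beside 29.8% of all tested genes.

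The remaining groups showed smaller differences in NPR3. TFE3 libraries held 2.51, 4.28 and 1.85 CPM and overlapped EV (log2 fold change -0.30, edgeR adjusted p = 1.0). CAMTA1 libraries held 5.74, 6.12 and 4.66 CPM against 5.64, 5.95 and 4.88 in EVsub, a difference of 0.02 with a 95% interval of -0.48 to 0.52. EVsub lay above EV in every library, with a log2 fold change of 0.62 ± 0.25 that missed the threshold (edgeR adjusted p = 0.058). That value passed under 3 other fits, with the replicate block, on those groups only and in DESeq2 (adjusted p = 0.0197 to 0.0351), and without EV replicate 1 (log2 0.92, edgeR adjusted p = 0.0139).

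**Figure D3:**
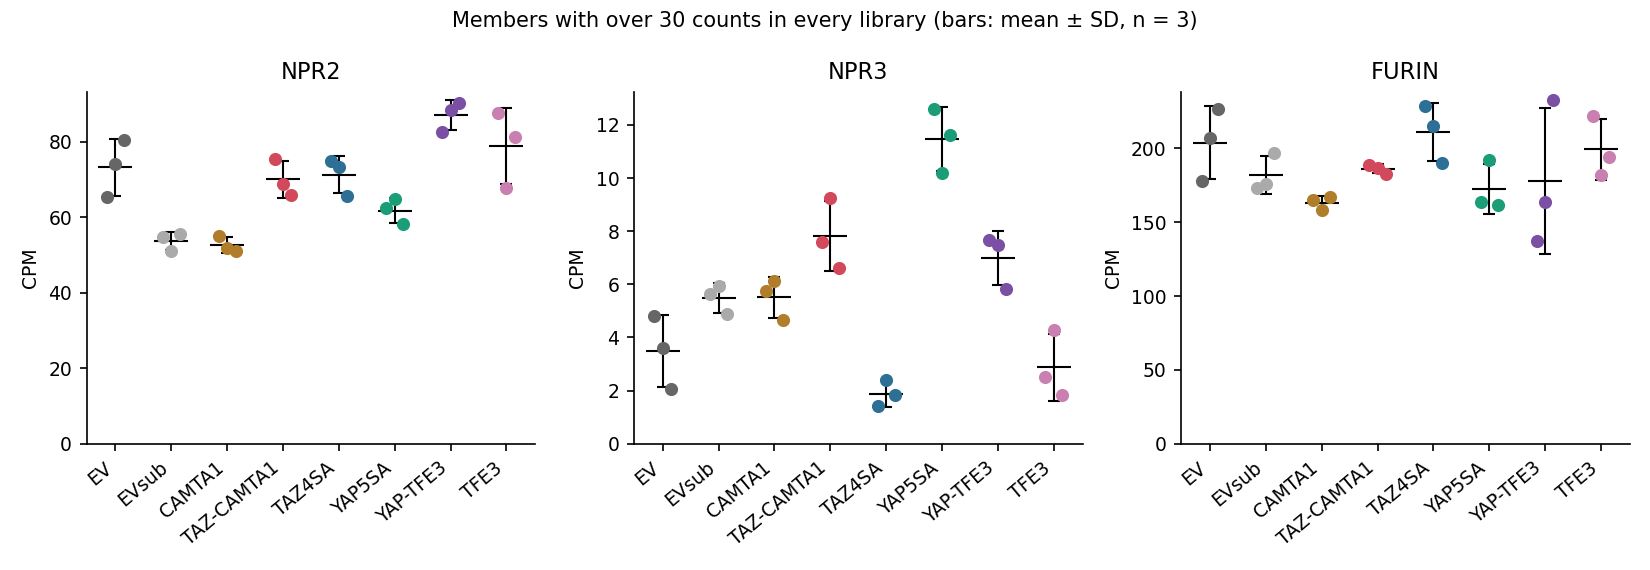
NPR2, NPR3 and FURIN in CPM on axes that start at 0, 1 point per library, with mean ± SD (n = 3). NPR3 is highest in YAP5SA (10.2 to 12.6 CPM) and lowest under the TAZ4SA label (1.41 to 2.40 CPM), NPR2 spans 51.0 to 90.3 CPM, and FURIN spans 137 to 233 CPM with the widest spread in YAP-TFE3.

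NPR2, the receptor for the NPPC product, differed little between groups. YAP-TFE3 libraries were highest at 82.6, 88.4 and 90.3 CPM, and the sub-confluent groups were lowest, with EVsub at 54.7, 51.1 and 55.5 and CAMTA1 at 54.9, 51.8 and 51.0. EV held 65.3, 74.0 and 80.4 CPM. The EVsub libraries all lay below the EV libraries, and the log2 fold change was -0.44 ± 0.09 (edgeR adjusted p = 0.00072). NPR2 was the 1 member of the 5 tested without NPPB to pass there, where 36.8% of all tested genes passed.

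YAP-TFE3 and YAP5SA lay on opposite sides of EV in NPR2. YAP5SA libraries held 62.3, 64.7 and 58.1 CPM, below all 3 EV libraries, and YAP-TFE3 lay above all 3. The direct difference, YAP-TFE3 against YAP5SA, was 0.50 ± 0.09 on the log2 scale (edgeR adjusted p = 8.4e-05), and TAZ-CAMTA1 was lower than YAP-TFE3 (log2 fold change -0.31 ± 0.09, edgeR adjusted p = 0.00785). Against EV itself the values were -0.25 for YAP5SA (edgeR adjusted p = 0.0341) and 0.25 for YAP-TFE3 (edgeR adjusted p = 0.028). For YAP5SA that call was lost in each fit without EV replicate 2 or 3 or YAP5SA replicate 1 or 3, at -0.25 to -0.18 (edgeR adjusted p = 0.0656 to 0.17), and with a mean of at least 1 count or with the groups compared only (edgeR adjusted p = 0.0584 to 0.064). For YAP-TFE3 it was lost in each fit without EV replicate 1 or 2 or YAP-TFE3 replicate 2 or 3, at 0.17 to 0.26 (edgeR adjusted p = 0.0564 to 0.163), and with total-count scaling or with the groups compared only, at 0.17 to 0.24 (edgeR adjusted p = 0.0871 to 0.1). SPAG8, which overlaps NPR2 on the other strand, was lower in YAP-TFE3 than in EV (0.962 against 2.14 CPM, log2 fold change -1.13, edgeR adjusted p = 0.000696), the opposite direction to NPR2.

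NPR1 was near the count floor, with 1 to 19 counts per library. The EV libraries held 7, 5 and 6 counts, the libraries labelled TAZ4SA 5, 3 and 6, and the YAP5SA libraries 5, 6 and 10. CAMTA1 libraries held 1, 3 and 2 and EVsub libraries 2, 2 and 5, so the sub-confluent groups were lowest. In YAP-TFE3 the third library held 19 counts and the others 8 and 6. NPR1 passed in none of the 11 comparisons in edgeR or DESeq2, and had an unadjusted p under 0.05 in 1. Its largest difference was EVsub against EV, at -1.12 ± 0.54 on the log2 scale (edgeR adjusted p = 0.105), with intervals at this depth wide enough to hold changes of over 2-fold.

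FURIN, the protease that cuts the NPPB precursor, passed in none of the 11 edgeR comparisons, nor in DESeq2, and had an unadjusted p under 0.05 in 1 of them, TAZ4SA against YAP5SA. EV libraries held 178, 207 and 227 CPM, the libraries labelled TAZ4SA 229, 215 and 190, and YAP5SA libraries 164, 192 and 162. The log2 fold change from EV was 0.05 in the libraries labelled TAZ4SA, with a 95% interval of -0.22 to 0.32, and -0.24 in YAP5SA, with an interval of -0.52 to 0.03. FURIN libraries overlapped those of EV in both groups in which NPPB was abundant.

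In YAP-TFE3, FURIN rested on 1 library. The 3 libraries held 137, 164 and 233 CPM, with the first and second below all EV libraries and the third above them. The log2 fold change from EV was -0.20 (edgeR adjusted p = 0.227), and without YAP-TFE3 replicate 3 it was -0.44 (edgeR adjusted p = 0.00189). CAMTA1 libraries held 165, 158 and 167 CPM and EVsub libraries 173, 176 and 197, which did not overlap, with a log2 fold change of -0.16 (edgeR adjusted p = 0.742).

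CORIN, the protease known for cutting the NPPA precursor, was at 4 to 23 counts per library. EV libraries held 19, 17 and 14 counts and YAP-TFE3 libraries 9, 12 and 13. The log2 fold change was -0.91 ± 0.32 (edgeR adjusted p = 0.0234), and no YAP-TFE3 library reached an EV library in CPM. This was lost in DESeq2 (log2 -0.92, adjusted p = 0.0547) and without EV replicate 1 or YAP-TFE3 replicate 1 (log2 -0.91 to -0.80, edgeR adjusted p = 0.0518 to 0.0776). In the libraries labelled TAZ4SA (12, 11 and 10 counts) and in YAP5SA (4, 13 and 12 counts) the differences from EV were -0.56 and -0.61 and missed the threshold (edgeR adjusted p = 0.16 and 0.146). Per kilobase, FURIN made up at least 99.8% of the pair's level in every group.

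**Figure D4:**
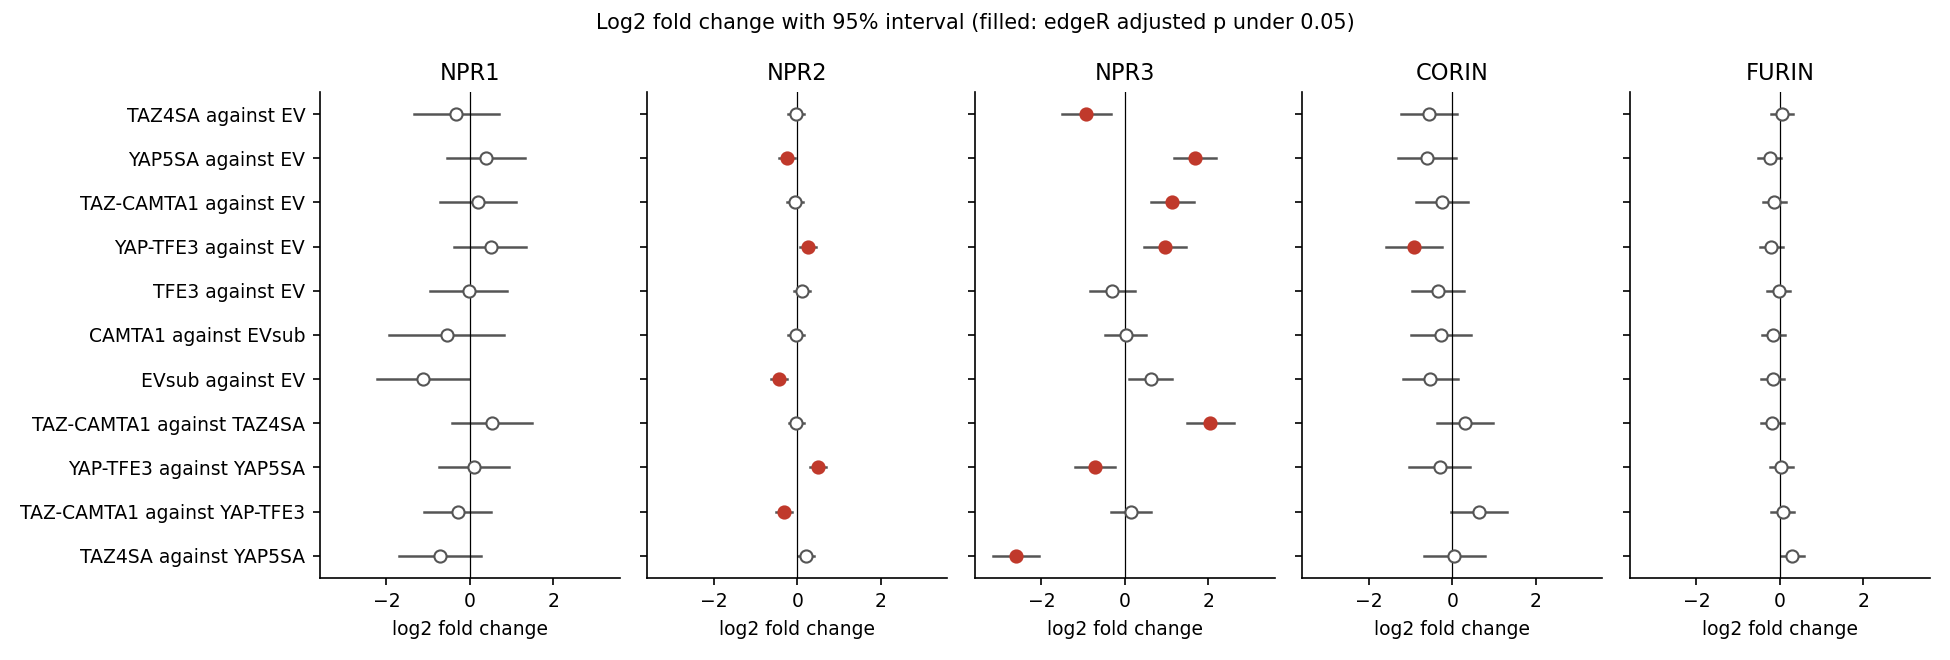
Log2 fold change (x axis) of the 5 members tested throughout, in 11 comparisons (rows), with 95% intervals; filled points passed an edgeR adjusted p under 0.05. NPR3 passed in 7 comparisons, 4 as higher and 3 as lower, NPR2 in 5, CORIN in 1, and NPR1 and FURIN in none.

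The members other than NPPB were also counted by comparison. Against EV, 1 of 5 passed in the libraries labelled TAZ4SA, beside 49.2% of all tested genes. In YAP5SA 2 of 5 passed, beside 44.3%, and in YAP-TFE3 3 of 5 passed, beside 48.2%. TAZ-CAMTA1 against the libraries labelled TAZ4SA gave 1 of 5 beside 53.7%, YAP-TFE3 against YAP5SA gave 2 of 5 beside 52.4%, and TAZ-CAMTA1 against YAP-TFE3 gave 1 of 5 beside 42.7%. In TFE3 against EV no member passed in edgeR, and none had an unadjusted p under 0.05, with DESeq2 also at 0, beside 0.035% of all tested genes. Comparisons with EV share the 3 EV libraries, so their values are set side by side and not compared with each other.

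The enzymes that remove natriuretic peptides were followed next, with the other proprotein convertases, as a list of 11 genes of which 10 were tested. Against EV, 3 were higher and 5 lower in the libraries labelled TAZ4SA, where 49.2% of all tested genes passed, and the median log2 fold change was -0.17 beside -0.03 over all tested genes. In YAP5SA 5 were higher and 2 lower, where 44.3% of all tested genes passed, with a median of 0.21 beside -0.04. In TAZ-CAMTA1 2 were higher and none lower, where 4.98% passed, with a median of 0.05. MME averaged under 5 counts in EV and was tested only through groups in which it was higher, and these counts and medians include it.

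MME encodes neprilysin, which degrades natriuretic peptides, and was singled out after its values were seen. It held 1 to 6 counts per library in EV, 158 to 220 in the libraries labelled TAZ4SA, 102 to 141 in YAP5SA and 94 to 118 in YAP-TFE3. TAZ-CAMTA1 libraries held 3 to 4 counts, so MME overlapped EV there (log2 fold change -0.32). Set against EV, MME gave log2 values of 5.56 (TAZ4SA label) and 5.09 (YAP5SA). TAZ-CAMTA1 lay below YAP-TFE3 (log2 fold change -4.72). In CAMTA1, where NPPB was higher than in EVsub, MME lay below EVsub (log2 fold change -1.38). These MME values are descriptions and are given with no p-value.

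Among the convertases, PCSK1, which cuts prohormones in endocrine cells, was lower than in EV in 4 groups, both with and without abundant NPPB. It stood at 60.0 CPM in EV, 8.51 under the TAZ4SA label and 7.12 in YAP5SA (log2 fold changes -2.82 and -3.07, edgeR adjusted p = 1.12e-10 and 3.55e-11). It was also lower in EVsub at 21.5 CPM and in YAP-TFE3 at 39.0 CPM (log2 fold changes -1.48 and -0.62, edgeR adjusted p = 7.88e-06 and 0.00896). In TAZ-CAMTA1 it stood at 57.9 CPM and did not pass against EV (log2 fold change -0.05, edgeR adjusted p = 0.925). PCSK5, a further convertase, stood at 7.75 CPM in EV, 4.50 under the TAZ4SA label and 12.2 in YAP5SA (log2 fold changes -0.78 and 0.66, edgeR adjusted p = 6.6e-05 and 0.00026), and was highest in the fusions at 20.8 CPM in TAZ-CAMTA1 and 24 in YAP-TFE3.

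Downstream of the receptors, a list of 20 genes for other guanylyl cyclases, cGMP-dependent kinases and phosphodiesterases had 10 tested members, and 11 of the 20 stayed within 3 counts in EV. Against EV, 3 were higher and 3 lower in the libraries labelled TAZ4SA (median log2 fold change 0.32), and the same numbers passed in YAP5SA (median 0.13), beside 49.2% and 44.3% of all tested genes. Of the 10, GUCY2D and PRKG1 averaged under 5 counts in EV and were tested only through groups in which they were higher. The counts and medians of this list include both. PDE1C, a calmodulin-dependent phosphodiesterase, stood at 51.7 CPM in EV, 196 under the TAZ4SA label and 169 in YAP5SA (log2 fold changes 1.92 and 1.71, edgeR adjusted p = 1.21e-08 and 7.53e-08). PDE5A, the cGMP-specific enzyme that sildenafil inhibits, was at 45.0 CPM in EV, 15.3 under the TAZ4SA label and 24.2 in YAP5SA (log2 fold changes -1.56 and -0.90, edgeR adjusted p = 1.77e-06 and 0.00108). PDE11A, which cuts both cyclic nucleotides, was at 40.7 CPM in EV, 4.57 under the TAZ4SA label and 8.94 in YAP5SA, and at 82.4 in TAZ-CAMTA1 (log2 fold changes -3.16, -2.19 and 1.02, edgeR adjusted p = 5.51e-12, 1.06e-09 and 0.000414). Groups with scarce NPPB differed from EV as well. EVsub held PDE11A at 10.7 CPM and PDE1C at 89.7 (log2 fold changes -1.95 and 0.80, edgeR adjusted p = 2.13e-07 and 0.00182), with PDE5A at 50.5. YAP-TFE3 held PDE5A at 20.4 CPM (log2 fold change -1.14, edgeR adjusted p = 6.47e-05), with PDE11A at 59.9 and PDE1C at 44.4.

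**Figure D5:**
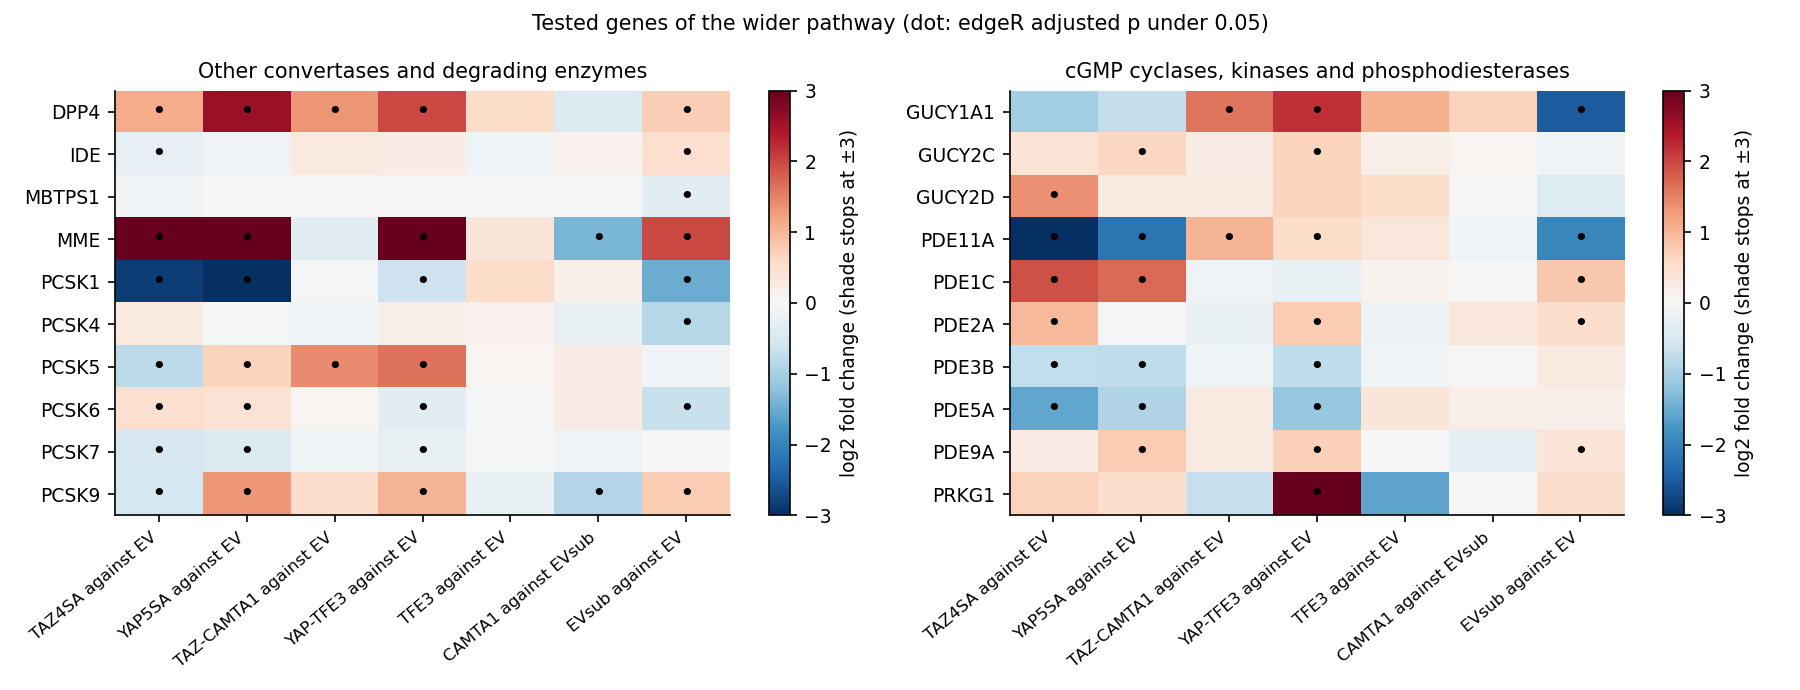
Log2 fold change of the tested genes of both lists (rows) in the 7 comparisons with an empty vector (columns), in colour from blue (lower) to red (higher) with shades ending at 3 either way; dots mark an edgeR adjusted p under 0.05. MME and DPP4 are red and PCSK1 blue against EV under the TAZ4SA label and in YAP5SA, and both lists are pale in the TFE3 and CAMTA1 columns for most genes.

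Factors known at the NPPA and NPPB promoters formed a list of 17 genes, with 14 tested. Against EV, 6 were higher and 4 lower in the libraries labelled TAZ4SA (median log2 fold change 0.18), and 4 were higher and 4 lower in YAP5SA (median 0.12), beside 49.2% and 44.3% of all tested genes. TEAD4, a DNA-binding partner of YAP and TAZ, was at 22.2 CPM in EV and higher in 5 of the groups tested against it, with 57.0 CPM in the libraries labelled TAZ4SA, 54.1 in YAP5SA, 53.5 in YAP-TFE3 and 45.7 in TAZ-CAMTA1 (log2 fold changes 1.36, 1.29, 1.27 and 1.05, edgeR adjusted p = 2.05e-10, 5.6e-10, 6.14e-10 and 3.08e-07). In the fifth, EVsub, it stood at 31.3 CPM (log2 fold change 0.50, edgeR adjusted p = 0.000737). NPPB was abundant in the first and second of these groups and not in the others. Other factors of the list did divide the groups as NPPB did. SRF stood at 98.8 CPM under the TAZ4SA label and 89.9 in YAP5SA, and between 52.6 (TFE3) and 63.6 (CAMTA1) elsewhere. REST was lowest in those groups, at 21.2 and 26.6 CPM against 38.5 in EV, as was MEF2C, at 1.75 and 1.49 against 4.93. The part of these factors in the NPPB levels was not tested. GATA4, a heart factor, was at 36.3 CPM in EV and higher in TAZ-CAMTA1 at 64.5 CPM (log2 fold change 0.83, edgeR adjusted p = 0.00198). It was also higher in YAP-TFE3 at 47.9 CPM and lower in EVsub at 24.4 CPM (log2 fold changes 0.40 and -0.57, edgeR adjusted p = 0.0416 and 0.00805).

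Markers of heart muscle and of other cell types were followed in the same libraries. Of 12 cardiomyocyte markers 7 were tested. TNNT2, MYL2 and MYL7 averaged under 5 counts in EV and were tested only through groups in which they were higher, so no count or median is given over the list. Of the other 4, TNNI3, cardiac troponin I, was higher than in EV under the TAZ4SA label and in YAP5SA (log2 fold changes 1.08 and 1.02, edgeR adjusted p = 0.00284 and 0.0057). RYR2, the heart ryanodine receptor, was lower in the libraries labelled TAZ4SA (log2 fold change -0.47, edgeR adjusted p = 0.012) and missed the threshold in YAP5SA (-0.34, edgeR adjusted p = 0.0677). GATA4 differed from EV by 0.04 and 0.06 and ACTN2 by -0.41 and -0.22, none of them called (edgeR adjusted p = 0.27 to 0.844). TNNT2, cardiac troponin T, held 0 to 2 counts per library in EV, 82 to 168 in the libraries labelled TAZ4SA and 53 to 203 in YAP5SA, and was named after its values were seen. The summed level of the list was 46.0 to 52.6 CPM in EV, 51.5 to 59.4 in the libraries labelled TAZ4SA, 51.7 to 62.0 in YAP5SA and 69.8 to 86.6 in TAZ-CAMTA1. It was 56.8 to 83.6 CPM in YAP-TFE3, 45.9 to 55.1 in TFE3, 30.2 to 34.9 in EVsub and 33.5 to 37.0 in CAMTA1. NKX2-5 was at 0 counts in every library but 1, and MYH7 had at most 6. Of 5 epithelial markers, KRT8, KRT18 and CDH1 were higher than in EV in both groups with abundant NPPB, EPCAM was lower in both, and CLDN4 was lower in YAP5SA, beside 49.2% and 44.3% of all tested genes called. CDH1 was at 0 to 1 counts per library in EV and was tested only through groups in which it was higher. KRT18 stood at 158 CPM in EV, 1040 under the TAZ4SA label and 1410 in YAP5SA. The summed level of the epithelial list was 205 to 221 CPM in EV, 1890 to 2160 in the libraries labelled TAZ4SA and 3020 to 4030 in YAP5SA. It was also above EV in EVsub (421 to 450), CAMTA1 (438 to 620), TAZ-CAMTA1 (407 to 517) and YAP-TFE3 (247 to 354), and 159 to 223 in TFE3. KRT8 was higher than in EV in EVsub, TAZ-CAMTA1 and YAP-TFE3 too (log2 fold changes 1.40, 2.15 and 1.18, edgeR adjusted p = 4.62e-06, 1.19e-08 and 4.49e-06). Of 6 endothelial markers, 4 were lower and VWF higher than in EV in the libraries labelled TAZ4SA, where 49.2% of all tested genes passed. In YAP5SA 5 were lower and VWF higher, where 44.3% passed. The summed level of that list was 115 to 154 CPM in EV, 42.2 to 64.2 in the libraries labelled TAZ4SA and 26 to 35 in YAP5SA. Groups with scarce NPPB were low as well, at 43.9 to 67.9 CPM in EVsub, 32.7 to 46.9 in CAMTA1 and 84.4 to 95.8 in YAP-TFE3. TAZ-CAMTA1 held 143 to 192 CPM and TFE3 116 to 173. The part of these markers in the NPPB levels was not tested.

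The genes whose log2 CPM most resembled each member over the 24 libraries were ranked among 12376 genes that averaged 100 counts or more. The libraries share 8 groups, so these coefficients describe the group pattern. The 5 most like NPPB were C1orf198 (Pearson r = 0.985), KRT18 (0.981), AGAP1 (0.979), ACTN4 (0.978) and RHPN2 (0.978). The 3 most like NPR3 were YAP1 (0.891), WNT5A (0.856) and PLOD2 (0.835), where YAP1 reads in YAP5SA and YAP-TFE3 can come from the construct. The 3 most like FURIN were POMGNT2 (0.901), P3H3 (0.877) and GSN (0.865).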

How the data were processed

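Poly(A) RNA of 24 SW872 libraries in 8 groups of 3 was analysed. Each library came as a deposited table of raw counts per Ensembl identifier, which the authors made in the bcbio-nextgen workflow on hg38 without normalization or pooling. Per the labels the kit was stranded. The study describes genome alignment and also Salmon with tximport. Which of these gave the deposited whole-number counts, and the strand setting, are not given in the sources used here. Testing used edgeR 4.0.16 (R 4.3.3, quasi-likelihood), with all libraries in 1 fit and TMM scaling. A mean of 5 counts or more was required, and a gene passed at a Benjamini-Hochberg adjusted p under 0.05 over the 19997 genes tested. Standard errors were derived from the F statistic. CPM values are edgeR's, on TMM-scaled library sizes, with SD over 3 libraries. An exact permutation test of 3 against 3 libraries cannot give a p-value under 0.1 and was not used. The floor was 3 counts per library. Intervals on count ratios are exact and, like the floor, cover counting error only, since no molecular identifiers were described. Of the identifiers, 56104 matched GENCODE 44. Totals per library were 19700277 to 35287476 counts. The scripts were tested on simulated data.

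The members and the gene lists were chosen with earlier results of these data known. All 8 members are named in every group. From each list up to 3 called genes per comparison averaging 100 counts or more could be named, by size of change, and fewer are printed. Some nearby genes, overlapping genes and the genes most like NPPB (5), NPR3 (3) and FURIN (3) were also named. MME and TNNT2 were named after their values were seen. Alternatives were a mean of at least 1 count, edgeR's filterByExpr, total-count scaling, DESeq2 1.42.0, the groups compared only, the replicate number as a block, and each library left out.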

Additional observations from a re-analysis of the deposited data

Results flagged for a closer look

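NPR3 and NPR2 differed between the fusion-to-parent contrasts of the TAZ and YAP pairs, which share no library. The difference between the pairs (TAZ-CAMTA1 minus the libraries labelled TAZ4SA, less YAP-TFE3 minus YAP5SA) was 2.77 ± 0.36 for NPR3 on the log2 scale (edgeR adjusted p = 2.19e-06) and -0.52 ± 0.13 for NPR2 (edgeR adjusted p = 0.00384). In this test of the difference 29.8% of all tested genes passed, and 2 of the 5 members tested did. NPR3 rose in the TAZ pair and fell in the YAP pair, and NPR2 differed by -0.02 in the TAZ pair and 0.50 in the YAP pair.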

How the results depend on the processing

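Counts of members passing, without NPPB, moved by over 1.5 times in 5 of the 12 tests. For the libraries labelled TAZ4SA against EV the count was 1, and 2 with total-count scaling. For YAP5SA against EV it was 2, 3 with total-count scaling, and 1 with a mean of at least 1 count or with the groups compared only. For EVsub against EV it was 1, and 2 with the groups compared only, with DESeq2 or with the replicate block. Without 1 library at a time the counts ran from 0 to 1 for the libraries labelled TAZ4SA against EV, 1 to 2 for YAP5SA against EV, 1 to 3 for YAP-TFE3 against EV, 1 to 2 for EVsub against EV and 1 to 2 for TAZ-CAMTA1 against YAP-TFE3. The cause was not tested. Of 755 single-gene alternatives, 727 kept their side of the threshold, 8 gained a call and 20 lost one. In 29 of the 755 the sign changed, each for a value called in neither fit and at most 0.50 in size, among them FURIN in the libraries labelled TAZ4SA against EV (-0.15 with total-count scaling). Total-count scaling moved the middle log2 value over all tested genes by -0.20 in the libraries labelled TAZ4SA and by -0.18 in YAP5SA, each against EV, and by 0.20 in TAZ-CAMTA1 against the libraries labelled TAZ4SA. Under it NPR2 passed in the libraries labelled TAZ4SA (log2 -0.24, edgeR adjusted p = 0.0148) and FURIN in YAP5SA (log2 -0.43, edgeR adjusted p = 0.00594). At this depth NPPC, NPPA and NPR1 could show only large changes.

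Replicate numbers recur in each group. Each library's deviations from its group mean were correlated between same-numbered libraries of the groups compared. These correlations ran from -0.236 to 0.366 and no comparison had every pair over 0.1, so the numbers were not taken as pairs. With the replicate block the count for EVsub against EV was 2, through NPR3, and the other counts did not change.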
